A study of Mus musculus with 8 samples.

Results

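The genes described here are 39 DNA replication genes, taken by symbol from a table of 52784 genes. All 39 were found, each on 1 row. They are Orc1, Orc6, Cdc6, Cdt1 and Gmnn of origin licensing, Mcm2 to Mcm7 of the replicative helicase, Cdc45, Gins1 to Gins4 and Mcm10 of helicase activation, Pcna and Rfc2 to Rfc5 of the sliding clamp and its loader, and Pola1, Pola2, Prim1, Pold1, Pole and Pole2 of the polymerases and primase. Fen1 and Lig1 finish the lagging strand, Rrm1, Rrm2 and Tyms supply deoxynucleotides, Rpa1, Rpa2 and Tipin bind single strands or protect the fork, and Chaf1a, Chaf1b and Uhrf1 restore chromatin behind it.

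RNA was sequenced from trafficked maternal cells and from recipient cells of mouse pups aged 1 week, in 8 libraries. All pups were F1 hybrids, with a BALB/c father and a CD11c-DTR mother of the C57BL/6 (B6) strain, in which the Itgax (CD11c) promoter drives the diphtheria toxin receptor, so that all dams carried that transgene. Dams received diphtheria toxin (DT, 5 ng/g) on embryonic day 13 (DC-depleted) or saline (DC control). Donor cells, 5000000 bone marrow mononuclear cells for each fetus, were injected into the fetal liver on embryonic day 14, and came from B6 mice in mIUT (maternal donor) and from BALB/c mice in pIUT (paternal donor). Each origin had 4 libraries, each pooled from several pups: without injection (uninjected), with mIUT or pIUT in DC control dams, and with pIUT in DC-depleted dams. In the study, uninjected fetuses of both DC-depleted and DC control dams served as controls. Which dams the uninjected pools came from is not given in the sources used here. These pups had no IUT, and a ratio against uninjected cells cannot be taken as one against saline alone. Maternal cells were sorted by H2K-b and recipient cells by H2K-d from whole-body harvests. Since F1 cells carry both haplotypes, and donor cells carry H2K-b in mIUT and H2K-d in pIUT, a library may hold cells of more than 1 source.

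A cell copies its genome in S phase. In G1 the origin recognition complex, Cdc6 and Cdt1 load the MCM2-7 ring onto DNA, and after G1 geminin (Gmnn) blocks any further loading. Cdc45 and the GINS complex then turn the ring into an active helicase, Pol alpha-primase starts each strand, and Pol epsilon and Pol delta extend them with the clamp Pcna. Many of these genes are transcribed from late G1 under E2F factors, so their RNA is a common measure of cycling cells, and among blood cells it is high in precursors of the erythroid, myeloid and lymphoid lines and low in mature neutrophils and resting lymphocytes.

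Levels are given in CPM, the usual count per library total after scaling by the library's TMM factor. Each comparison made here is between 2 libraries, 1 a group, and so has no replicate and no p-value. A model of origin and treatment over all 8 libraries, which would average over the treatments, was not run. A gene was compared where 1 of the 2 libraries had at least 10 counts, and was called higher at a ratio of at least 2 and lower at a ratio of at most 0.5. A fold against a library with 0 counts is a bound, taken at a floor of 3 counts a library. Calls and log2 ratios use that floor throughout, while a fold against 1 to 3 counts is the ratio of the measured values with its interval, so that the 2 kinds of fold are not set in order. No fold is given where both libraries had 3 counts or fewer. Ranges in parentheses after a fold are its counting interval at the 95% level, and intervals cover counting error only, since reads without molecular identifiers are not independent molecules. In bulk samples fewer cells of a type and less RNA per cell cannot be told apart.

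Total counts ran from 38543457 to 47965130 a library. As a measure of completeness, genes at 10 CPM or more in the other 7 libraries were called missing at under 1 CPM. Missing were 9.51% of them in the recipient uninjected library, 4.86% in maternal DC control mIUT and at most 1.26% in each of the other 6. By this measure, 2 of 24 replication genes (Pola2 and Prim1) were missing in recipient uninjected and 1 of 24 (Chaf1b) in maternal DC control mIUT. For the next limit, of 3 counts or fewer, no share of all genes was computed. Of the replication genes, 7 had 3 counts or fewer in the recipient uninjected library (Cdc45, Gins1, Gins3, Pola1, Prim1, Pole and Pole2), 5 in maternal DC control mIUT (Orc1, Cdc6, Pole, Pole2 and Chaf1b) and 1 in maternal uninjected (Pole2). None was that low in the other 5 libraries. Counts in the comparisons that use these libraries are therefore also given for genes above 3 counts in both.

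The labelled cell type was mononuclear cells, and marker genes of blood lineages differed strongly between libraries. In what follows, values are listed in the order uninjected, mIUT (always DC control), pIUT with DC control dams and pIUT with DC-depleted dams. The 10 erythroid genes (Hba-a1, Klf1 and others) summed, in CPM, to 37237, 8124, 50922 and 60528 in maternal cells and 50511, 112, 14644 and 9723 in recipient cells. The 7 mature neutrophil genes (S100a8, Ngp, Ltf and others) summed, in CPM, to 2847, 172173, 1766 and 10523 in maternal cells and 10643, 284829.6, 49198 and 7725 in recipient cells, so that they were highest in the libraries of mIUT. The 6 neutrophil precursor genes (Mpo, Elane and others) summed, in CPM, to 40.2, 2285, 9.90 and 607 in maternal cells and 6414, 1881, 679.5 and 14221 in recipient cells. The 8 mature B cell genes summed, in CPM, to 8020.1, 307, 49.7 and 33.8 in maternal cells and 1414, 71.7, 202 and 256 in recipient cells, and were highest in maternal uninjected cells. Over the 8 libraries the sums ran from 123 to 3541 CPM for T cell genes, from 3.09 to 569.8 CPM for NK cell genes, from 0.476 to 189.9 CPM for early B cell genes, from 685 to 36603 CPM for monocyte and macrophage genes and from 6.66 to 232 CPM for dendritic cell genes. They ran from 26.5 to 387 CPM for stem and progenitor cell genes, from 5.42 to 10260.4 CPM for hepatocyte genes, from 0 to 95.1 CPM for mesenchymal genes, from 10.8 to 168 CPM for endothelial genes and from 4.08 to 2478 CPM for epithelial genes. The part of these cell types in the replication gene levels was not tested.

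The level of the replication genes was higher in the libraries of pIUT than in the others. Their median was 117.4 and 129.9 CPM in maternal DC control and DC-depleted pIUT and 122.6 and 111.4 CPM in recipient DC control and DC-depleted pIUT. It was 30.2 CPM in maternal uninjected, 31.9 CPM in maternal mIUT and 44.0 CPM in recipient mIUT, and 64.7 CPM in recipient uninjected. Of the 39 genes, 36 had their highest level in 1 of the 4 libraries of pIUT (6 and 17 in maternal DC control and DC-depleted, 12 and 1 in recipient) and the other 3 in recipient uninjected. All 39 had their lowest level in 1 of the other 4 libraries, 16 in maternal mIUT, 11 in maternal uninjected, 9 in recipient uninjected and 3 in recipient mIUT. The same counts over all genes were not made. Medians of all genes that reached 10 CPM in at least 1 library ran from 12.1 CPM (maternal DC-depleted pIUT) to 21.0 CPM (recipient DC-depleted pIUT). Against recipient uninjected cells, all genes had median log2 ratios of 1.36 in DC control and 1.69 in DC-depleted pIUT. Those of the replication genes were lower, at 0.97 and 0.94. The spread between animals is unknown, so no order is read among the 4 libraries of pIUT, whose medians lay from 111.4 to 129.9 CPM.

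**Figure D1:**
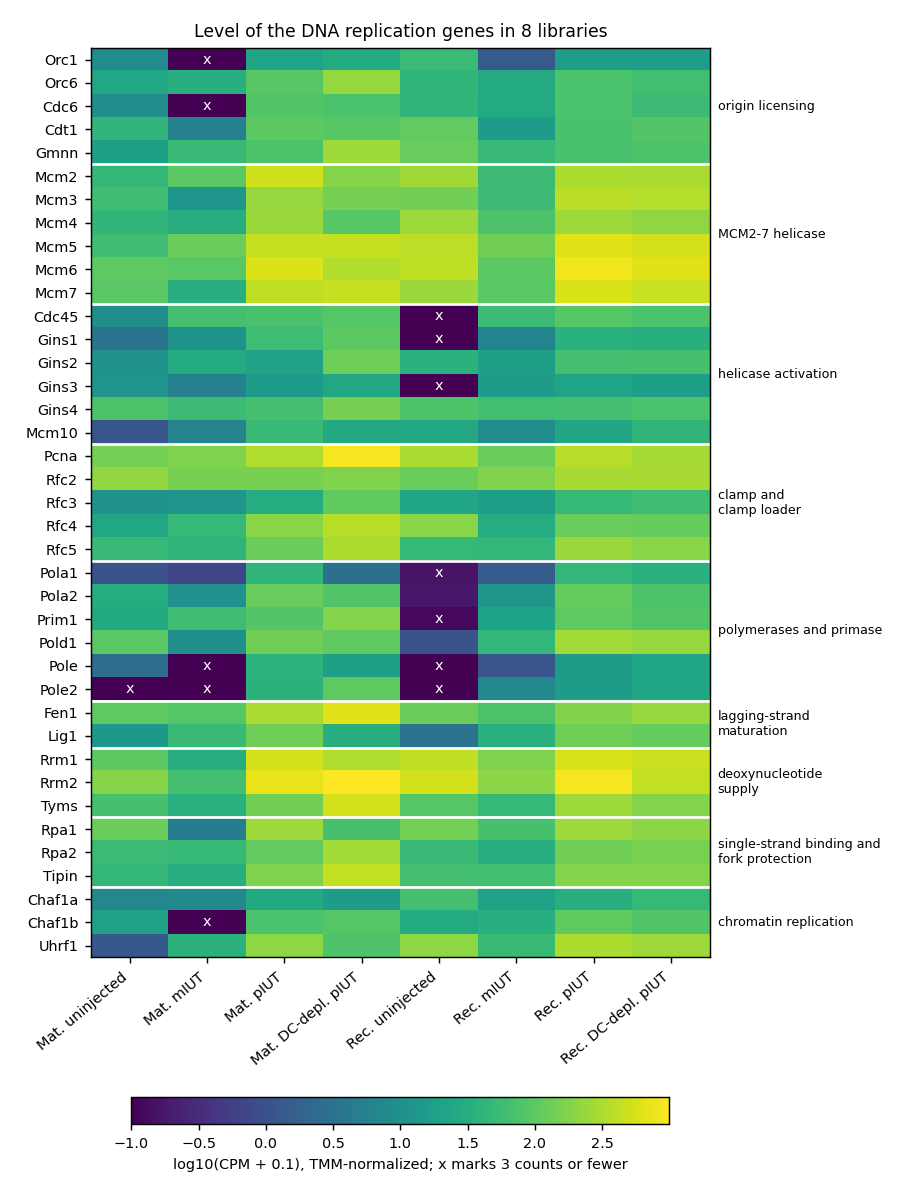
Each row is 1 of the 39 replication genes, grouped by role, and each column 1 of the 8 libraries, with colour for log10(CPM + 0.1). The columns of pIUT are light in nearly all rows, and the crosses mark the 13 values at 3 counts or fewer, 7 of them in the recipient uninjected library.

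Promoter sequence is a measure that does not come from the RNA. Promoter windows of 300 bases (250 before to 50 after the start, RefSeq, GRCm38.p6) were matched by symbol for 31 of the 39 genes. An E2F motif of 8 letters (TTTCCCGC, TTTGGCGC, TTTCGCGC or TTTGCCGC, on either strand) was in windows of 14 of these 31 genes (45.2%), against 2.26% of all 32851 windows and 2.6% of 27025 genes. The CCAAT box was in 20 of 31 (64.5%) against 37.4% of all windows and 41.1% of all genes. GGGCGG, the GC box bound by Sp1, was in 23 of 31 (74.2%) against 35.7% of windows and 38.2% of genes. A match is a description of letters and not a bound site. The windows of 7 genes are shown without their transcribed bases, as the 250 bases before the start, because these genes carry the contrasts below. Mcm6 and Mcm5 belong to the ring, Orc1 and Cdc6 load it and had 0 counts in maternal mIUT, and Gins3, Pola1 and Cdc45 were at 3 counts or fewer in recipient uninjected cells. Capitals mark E2F matches of 8 letters.
Mcm6 (chr1:128359706-128359955, minus strand): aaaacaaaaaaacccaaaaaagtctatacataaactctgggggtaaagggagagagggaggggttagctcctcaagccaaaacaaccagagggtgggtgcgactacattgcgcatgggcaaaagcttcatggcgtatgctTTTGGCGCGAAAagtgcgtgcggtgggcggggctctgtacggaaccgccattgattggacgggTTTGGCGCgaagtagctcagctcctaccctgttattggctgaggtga
Mcm5 (chr8:75109259-75109508, plus strand): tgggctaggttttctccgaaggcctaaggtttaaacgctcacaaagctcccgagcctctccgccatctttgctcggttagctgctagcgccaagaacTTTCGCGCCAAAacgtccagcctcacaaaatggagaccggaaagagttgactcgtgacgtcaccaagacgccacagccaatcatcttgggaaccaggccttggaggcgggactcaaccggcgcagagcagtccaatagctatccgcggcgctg
Orc1 (chr4:108579204-108579453, plus strand): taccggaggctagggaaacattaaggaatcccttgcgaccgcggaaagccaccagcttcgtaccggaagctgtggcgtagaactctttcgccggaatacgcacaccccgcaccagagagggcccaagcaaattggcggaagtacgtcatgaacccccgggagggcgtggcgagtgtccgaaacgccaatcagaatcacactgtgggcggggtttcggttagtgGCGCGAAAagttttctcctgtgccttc
Cdc6 (chr11:98907901-98908150, plus strand): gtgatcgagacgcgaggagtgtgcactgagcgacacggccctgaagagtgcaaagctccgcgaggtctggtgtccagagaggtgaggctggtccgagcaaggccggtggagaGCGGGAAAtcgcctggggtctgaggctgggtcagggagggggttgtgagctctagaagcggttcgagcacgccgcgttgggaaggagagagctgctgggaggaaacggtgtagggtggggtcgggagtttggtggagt
Gins3 (chr8:95633309-95633558, plus strand): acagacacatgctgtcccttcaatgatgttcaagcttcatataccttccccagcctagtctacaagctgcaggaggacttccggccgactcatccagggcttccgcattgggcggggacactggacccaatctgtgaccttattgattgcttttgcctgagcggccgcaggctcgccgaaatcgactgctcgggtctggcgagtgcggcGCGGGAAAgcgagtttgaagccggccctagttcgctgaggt
Pola1 (chrX:93632156-93632405, minus strand): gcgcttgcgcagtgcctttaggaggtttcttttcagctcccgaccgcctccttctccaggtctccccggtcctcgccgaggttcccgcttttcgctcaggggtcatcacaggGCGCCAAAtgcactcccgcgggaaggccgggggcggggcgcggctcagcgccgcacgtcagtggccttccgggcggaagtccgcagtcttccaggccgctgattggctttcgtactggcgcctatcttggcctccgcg
Cdc45 (chr16:18811973-18812222, minus strand): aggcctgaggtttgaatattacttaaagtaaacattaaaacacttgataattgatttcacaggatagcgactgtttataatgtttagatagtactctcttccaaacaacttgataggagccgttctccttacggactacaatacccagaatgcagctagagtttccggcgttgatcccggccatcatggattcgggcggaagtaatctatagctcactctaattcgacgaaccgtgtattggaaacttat

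Mcm6 had 3 matches, which began 110, 106 and 47 bases before the start, and the first 2 share bases. Mcm5 had 2, which began 153 and 149 bases before the start and also share bases. Orc1, Cdc6, Gins3 and Pola1 had 1 each, at 27, 138, 41 and 138 bases before the start. Cdc45 had none in the window. The bases shown for Cdc45, which leave out the transcribed ones, held 1 CCAAT box. Genes with and without a match were thus both among those at 3 counts or fewer in the recipient uninjected library.

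All 5 origin licensing genes were higher in both maternal libraries of pIUT than in maternal uninjected cells, while in recipient cells of pIUT none was higher than in recipient uninjected cells and 1 (Orc1) was lower. Of all genes compared, 34.7% and 35.7% were higher in the maternal and 52.9% and 55.2% in the recipient comparisons. Cdt1 in maternal DC-depleted pIUT was not called with library size alone (log2 ratio 0.82). Cdc6 and Orc1 had 0 counts in maternal mIUT. Their ranges are bounds (at least 1059.9-fold for Cdc6 and 677.9-fold for Orc1) and are not ranked. Cdc6, the loader ATPase, was at 9.35, 0, 82.1 and 73.6 CPM in maternal cells and 41.7, 28.1, 72.3 and 55.7 CPM in recipient cells. It was at 0 in maternal mIUT alone. Orc6, an origin recognition subunit, had the narrowest range (9.60-fold) and was at 23.8, 33.4, 92.3 and 229 CPM in maternal cells and 43.4, 28, 73.3 and 60.3 CPM in recipient cells. Its peak was in maternal DC-depleted pIUT. Orc1, the largest origin recognition subunit, was at 8.48, 0, 21.4 and 29.1 CPM in maternal cells and 52.5, 1.25, 16.8 and 17.7 CPM in recipient cells. Its highest level was, like that of Cdt1, in recipient uninjected cells, where Cdc45, Gins1 and Gins3, the next factors of the pathway, had 0 counts. Cdt1, which brings the ring to the origin, was lowest in maternal mIUT (5.55 CPM) and highest in recipient uninjected (108 CPM). Gmnn, the inhibitor of Cdt1, ran from 18.6 CPM in maternal uninjected to 261 CPM in maternal DC-depleted pIUT.

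The 6 subunits of the MCM2-7 ring were all highest in cells of pIUT (range over the 8 libraries 8.39-fold for Mcm4 to 31.4-fold for Mcm3). Mcm2 was at 45.6, 94.9, 513 and 185 CPM in maternal cells and 270.4, 56.0, 318 and 314 CPM in recipient cells. Mcm3 was at 58.3, 12.4, 239 and 152 CPM in maternal cells and 141, 55.8, 389.7 and 359.6 CPM in recipient cells. Mcm4 was at 43.4, 31.3, 254 and 89.7 CPM in maternal cells and 262, 74.9, 263 and 214 CPM in recipient cells. In all 3 the recipient library of mIUT was the lowest of its origin, while in maternal cells Mcm2 was lowest without injection and Mcm3 and Mcm4 were lowest in mIUT. Mcm5 was at 58.3, 121, 453 and 443 CPM in maternal cells and 406, 134, 628 and 545 CPM in recipient cells. Mcm6 (GRCm39 chr1:128259311-128287516, minus strand) was at 103, 93.7, 625 and 347 CPM in maternal cells and 418, 98.2, 820.1 and 649 CPM in recipient cells. Mcm7 was at 96.2, 31.9, 414 and 442 CPM in maternal cells and 252, 93.8, 599.9 and 455 CPM in recipient cells. All 4 libraries of pIUT were above maternal uninjected and above both libraries of mIUT for each of the 6 genes. Recipient uninjected cells were below both recipient libraries of pIUT for each gene except Mcm4, which lay between them.

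**Figure D2:**
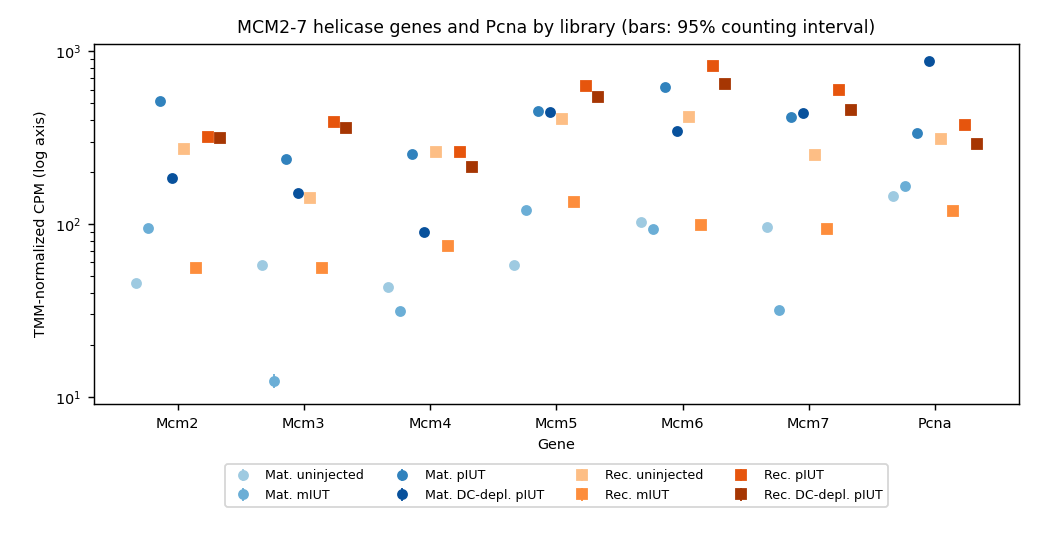
Points are TMM-normalized CPM on a log axis for Mcm2 to Mcm7 and Pcna, blue circles for maternal and orange squares for recipient libraries, and bars are 95% counting intervals, mostly smaller than the points. The darker points of pIUT lie above the maternal uninjected and both mIUT points for each of the 6 MCM genes, and Pcna is highest in maternal DC-depleted pIUT at 878 CPM.

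Helicase activation genes split in recipient uninjected cells, the library that lacked 9.51% of widely expressed genes. Gins1, a GINS subunit, was at 3.42, 11.3, 56.3 and 97.0 CPM in maternal cells and 0, 6.21, 35.4 and 33.0 CPM in recipient cells. Its range (at least 1564-fold) is a bound, as are those of Cdc45 (at least 1454-fold) and Gins3 (at least 391-fold), so they are not ranked. Gins4, another subunit of the GINS complex, varied 2.70-fold only and was at 76.9, 55.1, 66.0 and 149 CPM in maternal cells and 80.2, 61.6, 65.9 and 73.2 CPM in recipient cells. In recipient uninjected cells Gins1 thus had 0 counts, while Gins4 was within its range in the other libraries. Cdc45 (GRCm39 chr16:18599195-18631551, minus strand), which joins GINS on the ring, was at 9.89, 64.9, 71.8 and 89.2 CPM in maternal cells and 0, 55.2, 90.2 and 72.3 CPM in recipient cells. Mcm10, which supports the assembled helicase, was at 1.08 CPM in maternal uninjected and 49.1 CPM in maternal DC control pIUT, its lowest and highest values.

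The clamp and its loader were detected in all 8 libraries. Pcna, the sliding clamp, was at 145, 166, 335 and 878 CPM in maternal cells and 309, 119.7, 375 and 292 CPM in recipient cells, with maternal DC-depleted pIUT above all others. Rfc4, a clamp loader subunit, was at 24.9, 47.6, 192 and 365 CPM in maternal cells and 195, 29.9, 123 and 111 CPM in recipient cells, a range of 14.6-fold. Rfc2, another, had the narrowest range of the 39 genes (2.53-fold) and was at 228, 151, 149 and 175 CPM in maternal cells and 120.1, 173, 301 and 304 CPM in recipient cells. It was the single member of its role with a higher level in maternal uninjected cells than in both maternal libraries of pIUT.

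All 6 genes of the polymerases and primase were at under 1 CPM in recipient uninjected cells. That library lacked 9.51% of widely expressed genes, and the part of this lack was not tested. Prim1, the catalytic primase subunit, was at 27.1, 56.2, 86.04 and 182 CPM in maternal cells and 0.0207, 21.0, 103 and 81.6 CPM in recipient cells, where the recipient uninjected value was 1 count. Pold1, the catalytic subunit of Pol delta, had the narrowest range of the role (284-fold) and was at 94.1, 9.89, 136 and 104 CPM in maternal cells and 0.972, 45.0, 276 and 238 CPM in recipient cells. It was the single one of the role with more than 4 counts in recipient uninjected cells. Pola1 (GRCm39 chrX:92348365-92675813, minus strand), the catalytic subunit of Pol alpha, was at 0.874, 0.594, 42.2 and 2.94 CPM in maternal cells and 0.0620, 1.36, 44.9 and 35.3 CPM in recipient cells. It was low in all libraries except maternal DC control pIUT and both recipient libraries of pIUT. Pole2 (GRCm39 chr12:69248544-69274969, minus strand), a Pol epsilon subunit, was at 0, 0, 37.0 and 100.5 CPM in maternal cells and 0, 7.22, 15.7 and 23.1 CPM in recipient cells, and so had 0 counts in 3 libraries. It overlaps Gm49384 on the same strand, whose reads may be shared with it.

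Of the genes of lagging-strand maturation, Lig1 (the DNA ligase that seals Okazaki fragments) was at 13.5, 50.3, 137 and 32.8 CPM in maternal cells and 3.21, 34.7, 134 and 112 CPM in recipient cells, and Fen1 (the flap nuclease) at 103, 89.4, 306 and 662 CPM in maternal cells and 126, 75.2, 177 and 243 CPM in recipient cells. Fen1 had its peak in maternal DC-depleted pIUT, where Lig1 was lower than in the other libraries of pIUT. Rrm1, the large subunit of ribonucleotide reductase, was at 98.9, 30.5, 560.5 and 338 CPM in maternal cells and 421, 169, 565 and 484 CPM in recipient cells. Rrm2, its small subunit and the limiting one in S phase, was at 188, 64.9, 698 and 999 CPM in maternal cells and 538, 202, 868 and 432 CPM in recipient cells. Both were lowest in maternal mIUT, and Rrm2 was highest in maternal DC-depleted pIUT. Rpa1, the large subunit of the single-strand binding protein RPA, was at 123, 4.88, 256 and 68.0 CPM in maternal cells and 144, 67.6, 258 and 201 CPM in recipient cells. Rpa2, the middle subunit, was at 52.8, 48.2, 109 and 278 CPM in maternal cells and 51.7, 32.5, 136 and 158 CPM in recipient cells. Rpa1 was lowest in maternal mIUT, where Rpa2 was not the lowest of its 8 values. Chaf1b, a chromatin assembly factor subunit, was at 20.3, 0, 74.2 and 87.4 CPM in maternal cells and 29.1, 32.1, 105 and 81.4 CPM in recipient cells, and Chaf1a, its partner, at 7.27, 7.93, 26.5 and 15.8 CPM in maternal cells and 66.8, 21.1, 32.1 and 47.2 CPM in recipient cells. Chaf1b had 0 counts in maternal mIUT, and Chaf1a was highest in recipient uninjected cells.

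Subunits that form 1 complex were compared per kilobase of merged exon. In the MCM2-7 ring, which holds 1 copy of each subunit, the highest subunit was 2.77 to 4.69 times the lowest in 7 libraries, and 8.94 times in maternal mIUT, where Mcm3 was at 1.98 and Mcm5 at 17.7 CPM per kb. In the RFC2-5 subunits it was 3.25 to 13.8 times. In Pol alpha-primase, Pola1, Pola2 and Prim1 were at 3.04, 13.6 and 15.2 CPM per kb in maternal DC control pIUT, 3.23, 12.9 and 18.1 in recipient DC control pIUT and 2.54, 9.07 and 14.4 in recipient DC-depleted pIUT. Their ratio in these 3 libraries was thus alike (4.99 to 5.65 times between highest and lowest). In maternal DC-depleted pIUT it was 151.4 times, with Pola1 at 0.212 and Prim1 at 32.1 CPM per kb. It was also wide in libraries without pIUT, at 231.5 times in maternal mIUT, 75.8 times in maternal uninjected and 37.7 times in recipient mIUT. In recipient uninjected cells all 3 subunits had 4 counts or fewer.

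**Figure D3:**
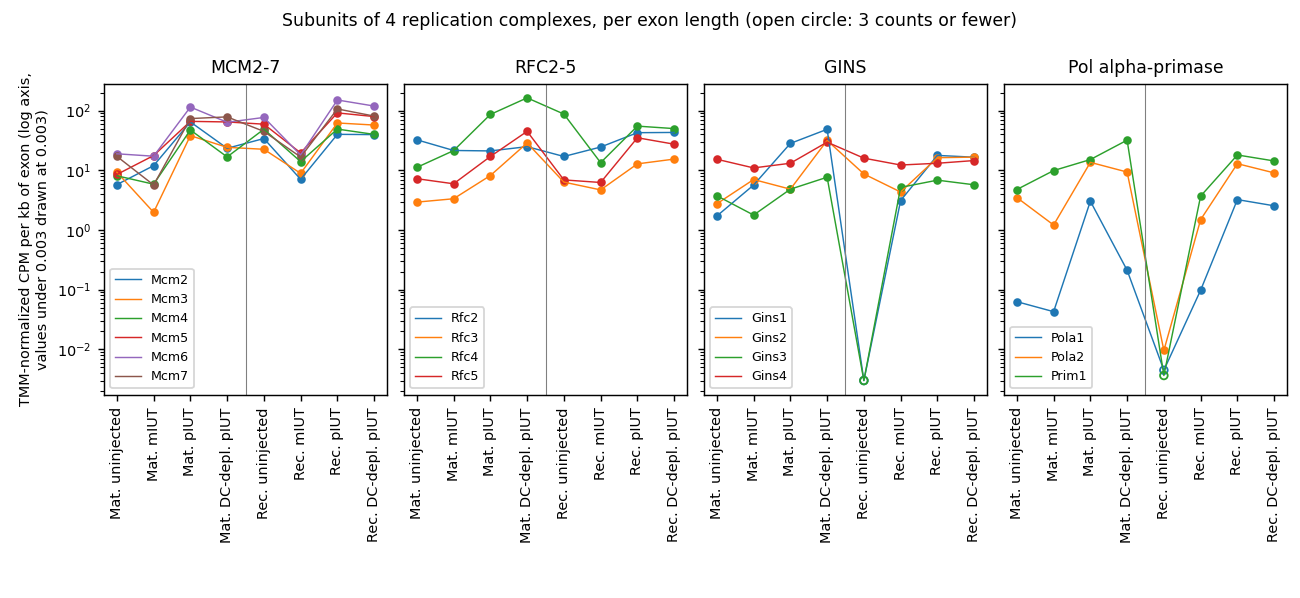
Each panel shows the subunits of 1 complex as TMM-normalized CPM per kilobase of exon (log axis) over the 8 libraries, with maternal cells left and recipient cells right of the vertical line; lines join values of the same gene. MCM2-7 stays within 8.94 times in each library, while Gins1, Gins3 and all of Pol alpha-primase are lowest in recipient uninjected cells.

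The first set of comparisons asked how maternal cells of injected pups differ from those of uninjected pups. In maternal DC control pIUT, 34 of 39 replication genes (87.2%) were higher than in maternal uninjected cells and 0 lower, where 34.7% of all genes compared were higher and 33.1% lower. The median log2 ratio of the replication genes was 1.95 and that of all genes 0.05. All 5 licensing genes, all 6 MCM genes, both lagging-strand genes, all 3 genes of deoxynucleotide supply, all 3 of fork protection and all 3 of chromatin were higher. Pole2 was at least 479.8-fold higher, and Uhrf1, which guides maintenance of DNA methylation at the fork, 178-fold higher (133 to 243). Mcm6 was 6.07-fold higher (5.87 to 6.28) and Pcna 2.31-fold higher (2.24 to 2.38). The 5 genes not called were Gins2, Gins3, Gins4, Rfc2 and Pold1, with log2 ratios from -0.62 (Rfc2, the lowest, before Gins4 at -0.22) to 0.81 (Gins2, which was called with library size or DESeq2 size factors).

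In maternal DC-depleted pIUT, 35 of 39 (89.7%) were higher than in maternal uninjected cells and 0 lower, where 35.7% of all genes compared were higher and 36.9% lower. The median log2 ratio was 2.41, against -0.02 for all genes. Pole2 was at least 1303-fold higher and Uhrf1 66.1-fold higher (49.4 to 90.5). Pcna was 6.04-fold higher (5.88 to 6.22) and Rrm2 5.32-fold higher (5.18 to 5.45). The lowest ratios were those of Rpa1 (log2 ratio -0.86) and Rfc2 (-0.38), and neither was called. With library size alone Rpa1 was called lower at -1.09. Above 3 counts in both libraries, 33 genes were higher in DC control and 34 in DC-depleted pIUT with 0 lower, against 52.5% and 46.0% of calls higher over all genes. Both comparisons share the maternal uninjected library, so their calls are not separate evidence. Along with the replication genes, 7 of 10 erythroid genes were higher and 0 lower in DC control pIUT, and 6 and 0 in DC-depleted pIUT, all 8 mature B cell genes and all 8 T cell genes were lower in both, and neutrophil precursor genes went from a sum of 40.2 CPM in uninjected to 9.90 and 607 CPM. The part of these cell types was not tested.

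In maternal mIUT the replication genes split. Of 38 compared, 10 (26.3%) were higher and 14 (36.8%) lower than in maternal uninjected cells, where 27.3% of all genes were higher and 45.2% lower. Their median log2 ratio was -0.38, against -0.60 for all genes. Chaf1b was at least 262-fold lower and Cdc6 at least 121-fold lower. Uhrf1 was 30.8-fold higher (23.0 to 42.3) and Cdc45 6.56-fold higher (5.89 to 7.33). Within the ring, Mcm2 and Mcm5 were called higher (log2 ratios of 1.06 and 1.05), Mcm3 and Mcm7 lower (-2.23 and -1.59), and Mcm4 and Mcm6 neither. Mcm2 and Mcm5 (both 0.84) were not called with library size alone. All 3 genes of deoxynucleotide supply were lower, of which Tyms passed narrowly and was not called with DESeq2 size factors (-0.96). For genes above 3 counts in both libraries, 10 were higher and 10 lower, while 53.0% of the calls over all genes were higher with that limit and 37.7% without it. Relative to the median of all genes 12 were higher and 9 lower. In the same comparison all 7 mature neutrophil genes were higher, with a sum of 172173 CPM against 2847 CPM, and all 8 mature B cell genes were lower. Their part in the split was not tested.

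The next comparison asked how DC-depleted and DC control pIUT differ in maternal cells. Of 39 genes, 13 (33.3%) were higher and 7 (17.9%) lower in DC-depleted than in DC control pIUT, where 36.3% of all genes were higher and 39.0% lower. Their log2 ratios had a median of 0.24, against -0.07 for all genes. This balance turned with scaling by library size alone, under which 4 genes were higher and 13 lower. Gins2, a GINS subunit, was 6.56-fold higher (6.12 to 7.03) and Tyms, the thymidylate synthase, 3.93-fold higher (3.82 to 4.04). Pola1 was 14.4-fold lower (11.7 to 17.8) and Lig1 4.19-fold lower (3.93 to 4.47). Pcna, Rfc3 and Rfc5 of the clamp and its loader were higher, and Mcm2 and Mcm4 of the ring lower. Among the polymerases and primase, Prim1 and Pole2 were higher and Pola1 and Pole lower. Pcna, Rfc5, Prim1 and Pole2 were not called with library size alone (log2 ratios of 0.81, 0.82, 0.50 and 0.86), and Prim1 was not called with DESeq2 size factors either (0.93). Between these libraries 5 of 6 neutrophil precursor and 5 of 8 monocyte and macrophage genes were higher, and their part was not tested.

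The direction in this comparison went with gene length. Spearman's correlation of log2 ratio with merged exon length was -0.56 over the 39 replication genes and -0.23 over the 15593 genes with a length, as a description of 1 pair of libraries in which genes share depth and base composition. Over all genes, the median log2 ratio was 0.98 in the shortest class (up to 3.79 kb), -0.04 in the middle class and -0.98 in the longest class (over 7.25 kb), with equal classes by rank of length. The 11, 20 and 8 replication genes of these classes had medians of 1.11, 0.24 and -0.97, close to those of all genes of their length. In recipient cells the same contrast gave medians of -0.12, -0.26 and -0.12 for the 10, 21 and 8 replication genes and 0.03, 0.10 and 0.16 for all genes, with classes up to 3.67 and 7.09 kb. The part of gene length in the differences between these maternal libraries was not tested.

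**Figure D4:**
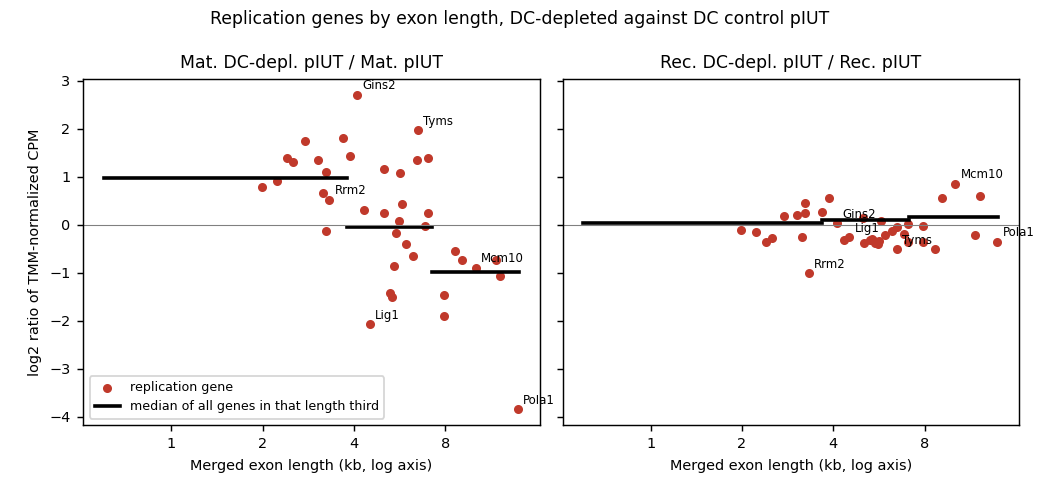
Each point is 1 replication gene, with merged exon length in kb (log axis) on the x axis and the log2 ratio of DC-depleted to DC control pIUT on the y axis, in maternal cells (left) and recipient cells (right), and black bars are medians of all genes in each of 3 classes of length. In maternal cells the points run from 2.71 (Gins2) to -3.84 (Pola1), with lower values among longer genes, and in recipient cells they stay between -1.01 and 0.86.

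In recipient cells maternal DC depletion went with little difference in these genes. Of 39 genes, 0 were higher and 1 (2.56%) lower in DC-depleted than in DC control pIUT, where 25.4% of all genes compared were higher and 14.1% lower. The median log2 ratio was -0.21, the middle 50% of the genes lay from -0.34 to 0.11, and the median of all genes was 0.10. Rrm2 was 2.01-fold lower (1.98 to 2.04), and with DESeq2 size factors or library size it was not called. Tyms followed, with 1.43-fold lower (1.39 to 1.47). The highest were Mcm10, 1.81-fold higher (1.68 to 1.95), and Pole, 1.52-fold higher (1.39 to 1.67). With library size alone Mcm10 was called higher (log2 ratio 1.09) and no gene was lower. Across these same libraries all 7 mature neutrophil genes were lower, 5 of 6 neutrophil precursor genes higher (Mpo at a log2 ratio of 4.65), 6 of 10 erythroid genes higher, all 8 T cell genes lower and all 7 hepatocyte genes higher. The replication genes except Rrm2 thus lay within ratios of 0.5 and 2, between libraries whose lineage genes differed. Without replicates this does not show that their levels were the same.

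The recipient libraries were also set against recipient uninjected cells, a library that these 3 comparisons share, with the limit that 7 replication genes had 3 counts or fewer there. In recipient DC control pIUT, 19 of 39 (48.7%) were higher and 2 (5.13%) lower, where 52.9% of all genes were higher and 21.5% lower. Their log2 ratios had a median of 0.97, against 1.36 for all genes. Prim1, with 1 count in uninjected cells, was 4967-fold higher (95% counting interval 891 to 196244), a log2 ratio of 10.69 at the floor. Cdc45 was at least 1454-fold higher. Orc1 was 3.13-fold lower (2.89 to 3.40) and Chaf1a 2.08-fold lower (1.95 to 2.21), which with library size alone was not called. All 6 genes of the polymerases and primase were higher. In the ring Mcm3 and Mcm7 were higher and the other 4 subunits were not called, though Mcm6 was higher with library size alone (log2 ratio 1.13). For genes above 3 counts in both libraries, 12 were higher and 2 lower, so that 85.7% of the members' calls were higher. Over all genes this share was 46.0% with the same limit and 71.1% without it. Relative to the median of all genes the members' balance was even, with 10 higher and 10 lower. Between the same libraries 7 of 10 erythroid, 8 of 8 mature B cell and 7 of 8 monocyte and macrophage genes were lower, and 6 of 8 T cell and 6 of 7 mature neutrophil genes higher, and their part was not tested.

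In recipient DC-depleted pIUT, 18 of 39 (46.2%) were higher and 1 (2.56%) lower than in recipient uninjected cells, where 55.2% of all genes were higher and 19.4% lower. The median log2 ratio was 0.94, against 1.69. Prim1, with 1 count in uninjected cells, was 3945-fold higher (95% counting interval 708 to 155864), a log2 ratio of 10.36 at the floor. Cdc45 was at least 1166-fold higher. Orc1 was 2.97-fold lower (2.76 to 3.21), and Rfc4 was next lowest at 1.75-fold lower (1.70 to 1.81). For genes above 3 counts in both, 11 were higher and 1 lower (91.7% of calls higher), against 42.0% of calls over all genes with that limit and 74.0% without it. Relative to the median of all genes the balance turned, with 10 higher and 18 lower. Here 5 of 10 erythroid and 8 of 8 mature B cell genes were lower and 7 of 7 early B cell genes higher, and their part was not tested.

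In recipient mIUT the ring and the polymerases went opposite ways. Of 39 genes, 10 (25.6%) were higher and 18 (46.2%) lower than in recipient uninjected cells, where 51.7% of all genes were higher and 27.1% lower. Their log2 ratios had a median of -0.75, against 1.22 for all genes. All 6 MCM genes were lower, Mcm2 4.83-fold lower (4.58 to 5.09) and Mcm3 2.53-fold lower (2.40 to 2.67), the ends of their range. Orc1 was 41.8-fold lower (30.1 to 59.9) and Cdt1 6.71-fold lower (6.10 to 7.40). Cdc45 was at least 890.4-fold higher. Prim1, on 1 count in uninjected cells, was 1015-fold higher (95% counting interval 182 to 40166), a log2 ratio of 8.4 at the floor. Of the 10 higher genes, 7 were those at 3 counts or fewer in recipient uninjected cells, and the other 3 were Pola2, Pold1 and Lig1, which had 4, 47 and 155 counts there. For genes above 3 counts in both, 3 were higher and 18 lower (14.3% of calls higher), against 45.8% of calls over all genes with that limit and 65.6% without it. In the same comparison all 7 mature neutrophil genes were higher (a sum of 284830 against 10643 CPM) and 9 of 10 erythroid genes lower (112.1 against 50511 CPM). Their part was not tested.

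**Figure D5:**
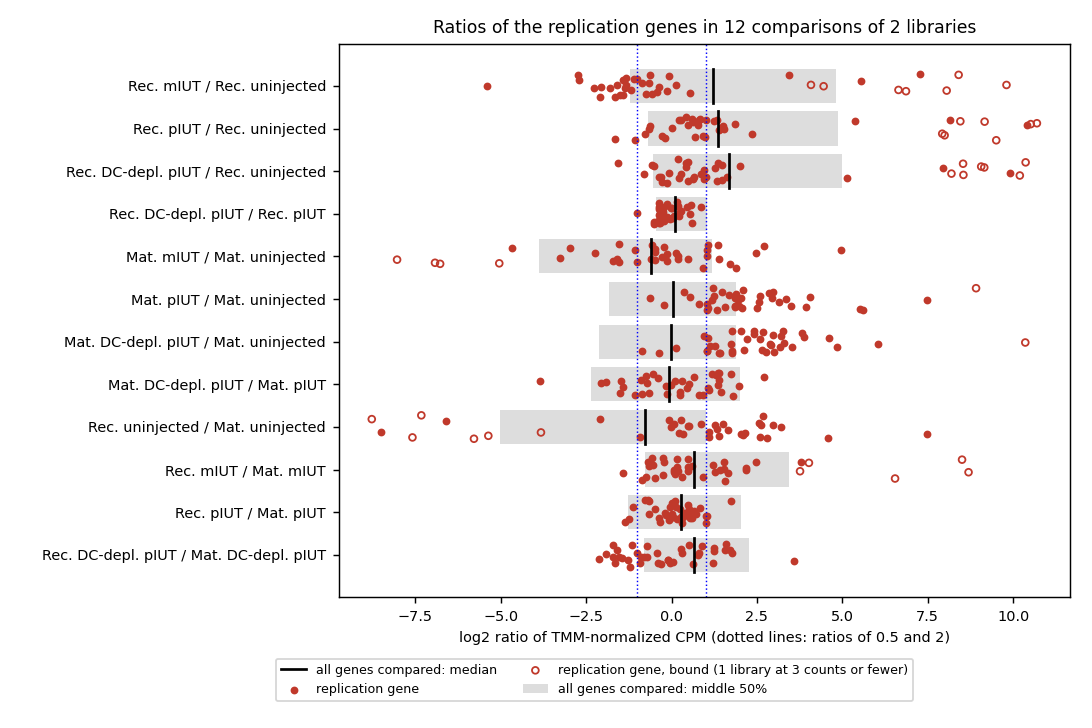
Each row is 1 comparison of 2 libraries, red points are log2 ratios of the replication genes compared (open where 1 library had 3 counts or fewer), grey bars hold the middle 50% of all genes compared and black lines are their medians. Most points of the rows of maternal pIUT against uninjected lie right of the black line, those of recipient DC-depleted against DC control pIUT lie between -1.01 and 0.86, and open points form the far groups in rows with recipient uninjected or maternal mIUT.

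Recipient cells were last compared with maternal cells of the same treatment. In uninjected pups, 19 of 38 genes were higher and 9 (23.7%) lower in recipient cells, where 25.1% of all genes were higher and 47.9% lower. The median log2 ratio was 0.98, against -0.79 for all genes. Uhrf1 was 177-fold higher (132 to 242) and Mcm10 23.8-fold higher (17.5 to 33.1). Prim1, on 1 count in recipient cells, was 1309.9-fold lower (95% counting interval 235 to 51785), a log2 ratio of -8.77 at the floor. Pola2 was 365-fold lower (142 to 1342). All 6 MCM genes were higher, with log2 ratios from 1.28 (Mcm3) to 2.80 (Mcm5). Between the same libraries all 6 neutrophil precursor genes were higher (a sum of 6414 against 40.2 CPM), as were 6 of 7 hepatocyte genes (10260.4 against 52.8 CPM), and 7 of 8 mature B cell genes were lower (1414 against 8020.1 CPM). Their part was not tested. With the limit of more than 3 counts in both, 19 were higher and 3 lower (86.4% of calls higher), against 54.7% of calls over all genes and 34.4% without the limit.

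After mIUT, 16 of 39 (41.0%) were higher and 1 (2.56%) lower in recipient than in maternal cells, where 44.6% of all genes were higher and 22.3% lower. Their log2 ratios had a median of 0.47, against 0.66. Chaf1b was at least 414-fold higher and Cdc6 at least 362-fold higher. Prim1 was 2.68-fold lower (2.45 to 2.94). Gins1 was 1.82-fold lower (1.52 to 2.18) and not called, but was called lower with library size (log2 ratio -1.20) and with DESeq2 size factors (-1.02). With library size alone 14 genes were higher and 5 lower. Above 3 counts in both, 11 were higher and 1 lower (91.7% of calls higher), against 49.6% of calls over all genes and 66.7% without the limit. Relative to the median of all genes 9 were higher and 8 lower. Of 8 erythroid genes compared, 6 were lower and 2 higher, and their part was not tested.

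After pIUT of DC control dams the origins were close. Of 39 genes, 4 (10.3%) were higher and 3 (7.69%) lower in recipient cells, where 35.1% of all genes were higher and 27.8% lower. The median log2 ratio was 0.12, against 0.27. Gins2 was 3.37-fold higher (3.14 to 3.62). Rfc5 was 2.06-fold higher (2.00 to 2.12), but was not called with library size (log2 ratio 0.86) or DESeq2 size factors (0.73). Pole was 2.58-fold lower (2.37 to 2.82) and Pole2 2.35-fold lower (2.16 to 2.57). Library size alone gave 1 higher and 3 lower, DESeq2 size factors 1 and 5, and the median of all genes as reference 1 and 4, so neither direction is read. All 10 erythroid genes were lower in recipient cells and all 7 mature neutrophil genes higher. None of the 6 MCM genes was called, except that Mcm2 was called lower with DESeq2 size factors, with log2 ratios from -0.69 (Mcm2) to 0.71 (Mcm3).

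After pIUT of DC-depleted dams, 8 of 39 (20.5%) were higher and 12 (30.8%) lower in recipient cells, where 45.2% of all genes were higher and 21.8% lower. Their log2 ratios had a median of -0.30, against 0.66. Pola1 was 12.02-fold higher (9.80 to 14.9) and Lig1 3.41-fold higher (3.19 to 3.64). Pole2 was 4.36-fold lower (4.08 to 4.65) and Orc6 3.79-fold lower (3.64 to 3.95). With library size alone the balance turned to 13 higher and 5 lower, and 80.7% of the calls over all genes were higher. The log2 ratio went with exon length, with a Spearman correlation of 0.63 over the 39 genes and 0.23 over 16994 genes, again as a description of 1 pair of libraries. All 10 erythroid genes were lower in recipient cells and all 8 monocyte and macrophage genes higher, and their part was not tested.

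Other genes of the pathway were counted in the same way. Over all genes, 34.7% were higher and 33.1% lower in maternal DC control pIUT than in maternal uninjected cells, and 35.7% and 36.9% in maternal DC-depleted pIUT. Of 32 other DNA replication genes (Rfc1, Cdc7, Donson, Timeless and others), 17 were higher and 4 lower in maternal DC control pIUT than in maternal uninjected cells, with a median log2 ratio of 1.30. Of 31 compared in maternal DC-depleted pIUT, 19 were higher and 3 lower (1.19). In recipient cells 2 were higher and 3 lower in DC-depleted than in DC control pIUT (0.04), against 25.4% and 14.1% of all genes. In maternal cells of the same contrast 13 were higher and 11 lower, against 36.3% and 39.0%. Dnmt1, the maintenance DNA methyltransferase, was the highest of the recipient comparison at a log2 ratio of 1.62 and Recql4, a helicase, the lowest at -1.61.

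Genes that start S phase and genes of mitosis were set beside the same shares of all genes. Of 13 G1/S activators (Ccne1, Ccne2, Cdk4, E2f1 and others), 9 were higher and 0 lower in maternal DC control pIUT than in maternal uninjected cells, and 9 and 2 in DC-depleted pIUT. Of the G1/S repressors (Rbl2, Cdkn1a, E2f7 and others), 7 of 13 were higher and 2 lower in DC control pIUT, and 2 of 12 and 4 in DC-depleted pIUT. Of 12 mitosis genes, 10 were higher and 1 lower in DC control pIUT and 8 and 1 in DC-depleted pIUT, with median log2 ratios of 2.38 and 2.36. Bub1, a spindle checkpoint kinase, was the highest of them in both, with 0 counts in maternal uninjected cells. The lowest were Cenpe, a motor of the kinetochore with 0 counts in DC control pIUT, and Kif11, a spindle motor with 20 counts in DC-depleted pIUT. Of 11 housekeeping genes, 0 were higher and 5 lower in DC control pIUT, and 2 and 6 in DC-depleted pIUT. In recipient mIUT against uninjected cells, where all 6 MCM genes were lower, 3 of 12 mitosis genes were higher and 1 lower, with a median of 0.13, where 51.7% of all genes were higher and 27.1% lower.

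Reads of some members may be shared with neighbours. Of the 39 genes, 13 overlap a protein-coding gene on the opposite strand and Pole2 one on the same strand, and whether counting used strand is not given in the sources used here. The overlaps run from 26 bases (Orc1 with Prpf38a) to 10520 bases (Rfc5 with Wsb2). Named pseudogene copies of Pcna and Tyms had at most 4 counts in each library.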

How the data were processed

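Bulk RNA-seq was done on 8 pooled libraries, 1 for each group. The table that the authors deposited holds estimated counts, of the kind salmon gives (29.22% of nonzero values are fractional), while their methods name featureCounts. The submitters' processing notes name bcl2fastq, StringTie and GRCm39. No column of the table was left out. Counts were rounded and scaled by TMM (edgeR 4.0.16, R 4.3.3). Gene symbols, positions and merged exon lengths came from a later GENCODE release than the study's, on GRCm39 (97.99% of IDs matched) and promoters from RefSeq on GRCm38.p6.

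With 1 library a group, a call was a CPM ratio of at least 2 or at most 0.5 where 1 library had at least 10 counts, with counts of 3 or fewer set to 3 for calls and log2 ratios; folds against 1 to 3 counts use the measured counts. Intervals were exact at 95% (scipy 1.17.1) and cover counting error only. The scripts were tested on simulated data. Values in each library are given for Mcm2 to Mcm7, Pcna and the members with the widest and narrowest range of each role. For this choice a range with a library at 3 counts or fewer was taken at its bound. Ratios are given for the 2 highest and 2 lowest members of each comparison. Genes named beside these were chosen after their values were seen. The members and lists were chosen with earlier results of these data known.

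Alternatives were library size alone, DESeq2 1.42.0 size factors, a minimum of 1 count, a ratio of 4, the fold change from edgeR's exact test with the dispersion set to 0.4, and the E2F core of 7 letters. After the data were seen, counts over genes above 3 counts in both libraries and counts relative to the median of all genes were added. Receptor clonotype files were not used here.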

Additional observations from a re-analysis of the deposited data

Results flagged for a closer look

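Some replication genes were called in opposite directions in recipient and maternal cells under the same contrast. With 1 library a group, the difference was not tested. For mIUT against uninjected cells this held for 10 genes, while 4 were higher in both origins and 7 lower in both. The 10 were 26.3% of the 38 compared in both origins, near the 25.4% of all 12386 genes compared in both that were opposite. Of all genes 16.6% were higher in both and 14.9% lower in both.

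Of the 10, 6 were lower in recipient and higher in maternal cells. The log2 ratios in recipient and maternal cells were -1.19 and 1.40 for Gmnn, -2.27 and 1.06 for Mcm2 and -1.60 and 1.05 for Mcm5. They were -1.01 and 1.35 for Gins2, -1.51 and 2.47 for Mcm10 and -2.05 and 4.95 for Uhrf1. The other 4 were higher in recipient and lower in maternal cells, with 8.05 and -1.08 for Gins3, 7.28 and -1.53 for Pola2, 5.53 and -3.25 for Pold1 and 4.08 and -5.04 for Pole. The recipient value of Gins3 and both values of Pole are taken at the floor of 3 counts, and the recipient value of Pola2 rests on 4 counts in uninjected cells.

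For DC control pIUT against uninjected cells 2 genes were opposite, Orc1 with -1.65 in recipient and 1.34 in maternal cells and Chaf1a with -1.06 and 1.87, while 16 were higher in both origins. That is 5.13% opposite and 41.0% higher in both, against 23.5% and 18% of all genes. For DC-depleted pIUT against uninjected cells Orc1 was opposite again, with -1.57 and 1.78, and 16 were higher in both, that is 2.56% and 41.0% against 22.8% and 20.1% of all genes. Scaled by library size alone, the maternal values of Mcm2 and Mcm5 after mIUT (both 0.84) and the recipient value of Chaf1a after DC control pIUT (-0.89) were not called, so these 3 genes were then not opposite. All of these use the recipient uninjected library, which lacked 9.51% of widely expressed genes, and its part in them was not tested.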

How the results depend on the processing

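No paired analysis was run. Each comparison is between 2 single libraries, so that no library could be left out of a group. The maternal cells were isolated from the recipients, so the maternal and recipient libraries of a treatment could be paired. A fit of origin over all 8 libraries with treatment as a block, which would use these pairs, would answer another question and was not run. No called member among those named changed direction with library size, DESeq2 size factors or the exact test. Gins4, not called in maternal DC control pIUT against uninjected, went from a log2 ratio of -0.22 to 0.12 with library size, and the balance of higher and lower members turned in the comparisons given below. Counts moved by no more than 1.5 times in all 24 cases with a minimum of 1 count and with the exact test's fold change. Library size alone moved the median log2 ratio of all genes by -0.58 to 0.63 and DESeq2 size factors by -0.31 to 0.20. Depth limits the folds of the 13 values of members at 3 counts or fewer.

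In recipient cells, against uninjected, mIUT had 6 genes lower at a ratio of 4, 3 higher above 3 counts in both libraries, and 28 lower relative to the median of all genes. DC control pIUT had 1 lower with library size, 11 higher and 0 lower at a ratio of 4, 12 higher above 3 counts, and 10 higher and 10 lower relative to the median. DC-depleted pIUT had 10 higher and 0 lower at a ratio of 4, 11 higher above 3 counts, and 10 higher and 18 lower relative to the median. For DC-depleted against DC control pIUT, library size gave 1 higher and 0 lower, DESeq2 0 lower and a ratio of 4 0 lower.

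In maternal cells, against uninjected, mIUT had 3 higher and 8 lower at a ratio of 4 and 9 lower relative to the median. DC control pIUT had 18 higher at a ratio of 4, and DC-depleted pIUT 1 lower with library size. For DC-depleted against DC control pIUT, library size gave 4 higher and 13 lower, and a ratio of 4 gave 1 and 2.

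For recipient against maternal cells, uninjected pups had 12 higher at a ratio of 4 and 3 lower above 3 counts. After mIUT, library size gave 5 lower, DESeq2 2 lower, a ratio of 4 gave 9 higher and 0 lower, and the median 9 higher and 8 lower. After DC control pIUT, library size gave 1 higher, DESeq2 1 higher and 5 lower, a ratio of 4 gave 0 and 0, and the median 1 higher. After DC-depleted pIUT, library size gave 13 higher and 5 lower, a ratio of 4 gave 1 and 1, and the median 3 higher and 19 lower. The share of higher among called genes over the whole table moved by 13.3 points with library size in that last comparison, to 80.7%. The E2F core of 7 letters was in 22 of 31 promoters (71.0%, against 10.9% of all genes), while that of 8 letters was in 14 (45.2%, against 2.6%). The cause of these moves was not tested, except that a stricter ratio or fewer genes lowers a count by construction. The ratio of the highest to the lowest library median was 4.30, against 5.43 with library size and 4.45 with DESeq2. Leaving out recipient uninjected and maternal mIUT could not change the first of these, whose highest and lowest libraries are others. With library size alone maternal mIUT is the lowest library, and that ratio was not computed without it.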
